A study of Fagopyrum tataricum with 9 samples.

Results

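Phenylalanine ammonia-lyase (PAL) opens the phenylpropanoid pathway, and 2 of the 3 PAL genes in the study's flavonoid gene list are described here, out of 33940 genes in the tables. They are FtPinG0003900700.01, called PAL-A below, and FtPinG0008236900.01, called PAL-B, and the third gene, FtPinG0008237100.01, is called PAL-C. PAL-A and PAL-B were chosen by their measured values, because they lead the PAL class at different stages by mean FPKM (fragments relative to the transcript's length and to the library's total). Their levels and changes over the stages are therefore given as a description, with no test.

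RNA was measured by sequencing in seeds of tartary buckwheat (Fagopyrum tataricum), cultivar XIQIAO NO.2, at the green fruit stage (13 days post anthesis, DPA), the discoloration stage (19 DPA) and the initial maturity stage (25 DPA). Each stage had 3 replicates from different field plants with no treatment, and the 3 stages were sampled on the same individual plants. Which replicate numbers belong to 1 plant is not stated, so p-values measure the spread between these samples. Whole seeds were sampled, so fewer cells of a type and less RNA per cell cannot be told apart.

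PAL removes the amino group of phenylalanine to give cinnamic acid. Cinnamate 4-hydroxylase (C4H) and 4-coumarate CoA ligase (4CL) then make p-coumaroyl-CoA, from which chalcone synthase (CHS), chalcone isomerase (CHI), flavonoid hydroxylases and flavonol synthase (FLS) lead to flavonols, and glycosyltransferases (UGT) add sugars. Rutin, the main flavonol glycoside of tartary buckwheat seed, comes from this route. Plants usually hold several PAL genes that differ in where and when they are transcribed.

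The 9 libraries held 22002318 to 25811462 counts over genes. The share of the 10 most abundant genes was 5.82% to 18.0% at 13 DPA, against 29.3% to 36.5% at 19 and 25 DPA. Scaling by TMM (trimmed mean of M values, which sets libraries level on the bulk of their genes) gave factors of 1.31 to 1.81 at 13 DPA and 0.652 to 0.971 later, so the choice of scaling moves the 13 DPA values against the rest. The 13 DPA libraries were uneven in the R2 of log10(FPKM + 1). Replicate 2 had 0.945 against 13 DPA replicate 1 and 0.936 against 19 DPA replicate 1, both above its 0.904 against 13 DPA replicate 3. Of the storage protein genes used to check the tissue, glutelin FtPinG0008579200.01 was at 35.8 to 166 FPKM in all 9 libraries, with its highest value in 13 DPA replicate 2. Glutelin FtPinG0000417000.01 was at 2.69 to 30.2 FPKM, also highest in that library. The only globulin gene examined, 11S globulin FtPinG0004288700.01, had 0, 1 and 3 counts at 13 DPA and at most 84 counts in any library. The study lists other globulin genes and places their rise mainly earlier than that of this gene. Those genes were not examined here, so these low counts hold for this gene alone and do not give the level of globulin transcripts as a class.

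PAL-A had its highest mean level in the green fruit and its lowest in the maturing seed. Its deposited FPKM at 13 DPA was 99.5, 85.0 and 44.3 in replicates 1 to 3, a mean of 76.3 ± 28.6 (SD, n = 3). At 19 DPA it was 30.5, 32.3 and 24.8, a mean of 29.2 ± 3.88 (SD, n = 3). At 25 DPA it was 5.997, 17.6 and 6.50, a mean of 10.03 ± 6.55 (SD, n = 3). On this scale every 13 DPA library was above every 19 DPA library, and every 19 DPA library above every 25 DPA library. Replicate 3 was the low library at 13 DPA, and replicate 2 the high one at 25 DPA.

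The reads behind these levels were 5091, 4660 and 2071 counts at 13 DPA, then 1473, 1583 and 1178 at 19 DPA and lastly 285, 882 and 327 at 25 DPA. The exact Clopper-Pearson 95% interval of PAL-A's share of a library's counts had a half-width of 2.76% to 11.8% of that share, which covers counting error only. At 25 DPA replicates 1 and 3 differed by less than this error, and replicate 2 by more. By deposited FPKM, PAL-A stood among the highest 4.68%, 4.57% and 11.6% of genes in the 13 DPA libraries. At 25 DPA it stood among the highest 30.4%, 14.6% and 26.9%.

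With TMM scaling the drop of PAL-A was smaller at the first step. The TMM-scaled FPKM was 61.9, 64.9 and 24.5 at 13 DPA, then 31.4, 44.0 and 25.6 at 19 DPA and lastly 8.13, 22.3 and 9.98 at 25 DPA. On this scale the 13 and 19 DPA libraries overlapped, because 13 DPA replicate 3 was below all 3 libraries of 19 DPA, while the 25 DPA libraries were below those of both other stages. The fitted log2 fold change of PAL-A was -0.58 (SE 0.46) from 13 to 19 DPA, -1.32 (SE 0.47) from 19 to 25 DPA and -1.90 (SE 0.48) from 13 to 25 DPA. The first of these was -0.36 without 13 DPA replicate 2 and -0.91 without 13 DPA replicate 3.

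PAL-B had its highest mean level at the discoloration stage. Its deposited FPKM was 59.3, 83.3 and 40.7 at 13 DPA, a mean of 61.1 ± 21.3 (SD, n = 3). At 19 DPA it was 91.1, 93.1 and 95.8, a mean of 93.3 ± 2.38 (SD, n = 3), and at 25 DPA it was 32.9, 51.7 and 64.6, a mean of 49.7 ± 15.9 (SD, n = 3). All 3 libraries of 19 DPA were above every other library, whereas the 13 and 25 DPA libraries overlapped. The replicates of 19 DPA lay close together in deposited FPKM, and those of 13 and 25 DPA were spread widely.

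The counts of PAL-B were 3146, 4728 and 1970 at 13 DPA, then 4560, 4732 and 4709 at 19 DPA and lastly 1621, 2688 and 3366 at 25 DPA. The gene stood among the highest 2.50% to 3.05% of genes by FPKM at 19 DPA and among the highest 3.86% to 7.65% at 25 DPA, so it stayed an abundant transcript in the maturing seed. At 13 DPA its place was the highest 8.29%, 4.65% and 12.6% in replicates 1 to 3.

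TMM scaling placed the 25 DPA libraries of PAL-B higher relative to 13 DPA. The TMM-scaled FPKM was 36.9, 63.6 and 22.5 at 13 DPA, then 93.9, 127 and 98.8 at 19 DPA and lastly 44.6, 65.7 and 99.1 at 25 DPA. The 19 DPA libraries stayed above those of 13 DPA, but 25 DPA replicate 3 reached the level of 19 DPA replicates 1 and 3. The fitted log2 fold change of PAL-B was 1.38 (SE 0.41) from 13 to 19 DPA and -0.61 (SE 0.41) from 19 to 25 DPA. From 13 to 25 DPA it was 0.77 (SE 0.41) with TMM, but -0.30 with total counts as the only scaling and -0.28 with limma on log2(FPKM + 1), so the direction between the first and the last stage depended on the scaling. With TMM, this change was 1.24 without 13 DPA replicate 2 and 0.43 without 25 DPA replicate 3.

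**Figure D1:**
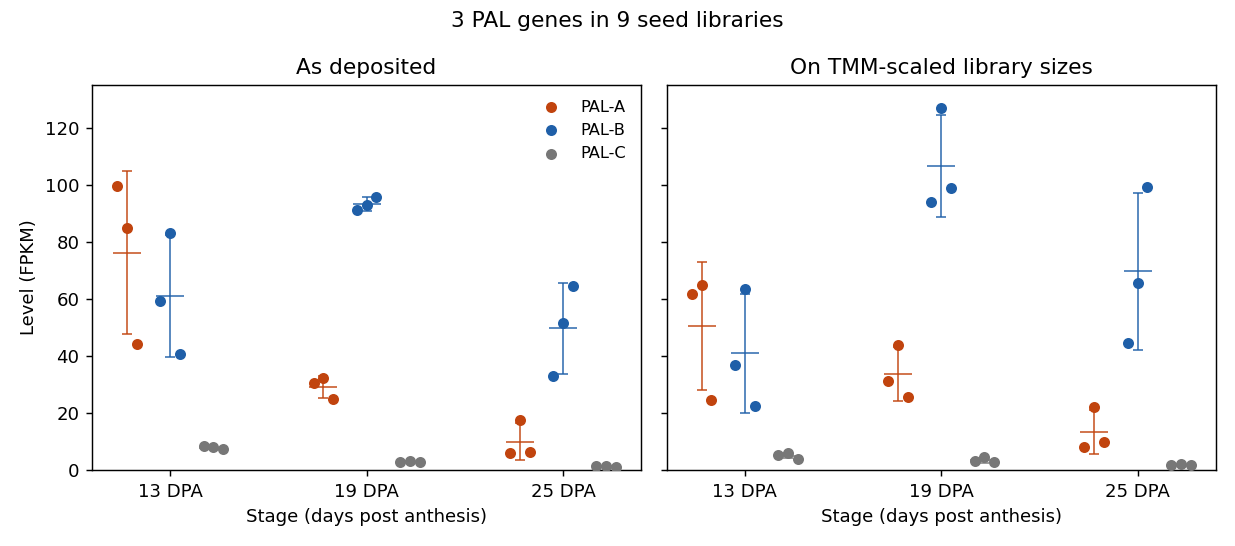
Levels of PAL-A, PAL-B and PAL-C in FPKM (y axis) at 13, 19 and 25 DPA (x axis), as deposited on the left and on TMM-scaled library sizes on the right. Each point is 1 library, and the dash and bars are the mean and SD of 3 libraries. PAL-A goes from 76.3 to 10.03 deposited FPKM between the first and the last stage, and PAL-B has its highest mean, 93.3, at 19 DPA.

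Put in order of the mean deposited FPKM, the levels were PAL-B at 19 DPA, PAL-A at 13 DPA, PAL-B at 13 DPA, PAL-B at 25 DPA, PAL-A at 19 DPA and PAL-A at 25 DPA. Each of the first 3 overlapped with the next in the range of its libraries, although PAL-B at 19 DPA lay above PAL-B at both other stages. Such ranges leave out that PAL-A and PAL-B were measured in the same libraries. Within each 13 DPA library PAL-A was the higher, in replicate 2 by no more than counting error. PAL-B at 25 DPA did not overlap with PAL-A at 19 DPA, nor that level with PAL-A at 25 DPA. With TMM-scaled FPKM, PAL-B at 25 DPA moved to the place after PAL-B at 19 DPA, and the last place alone was free of overlap with its neighbour.

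The ratio of the PAL genes within 1 library does not depend on the scaling between libraries. The FPKM of PAL-B over that of PAL-A was 0.596, 0.979 and 0.918 in the 13 DPA libraries. It was 2.99, 2.88 and 3.86 at 19 DPA, and 5.49, 2.94 and 9.93 at 25 DPA. PAL-A was thus the higher of both genes in all 3 libraries of 13 DPA and PAL-B in the 6 later ones, and the ratios of 13 DPA did not overlap with the rest. The ratios of 19 and 25 DPA overlapped through 25 DPA replicate 2.

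The log2 ratio averaged -0.30 ± 0.39 at 13 DPA, 1.68 ± 0.23 at 19 DPA and 2.44 ± 0.88 at 25 DPA (SD, n = 3), with geometric mean ratios of 0.812, 3.22 and 5.43. In the fit the log2 ratio changed by 1.96 from 13 to 19 DPA, by 0.71 from 19 to 25 DPA and by 2.67 from 13 to 25 DPA. The step from 19 to 25 DPA was 1.33 without 25 DPA replicate 2 and 0.19 without 25 DPA replicate 3, so its size rested on single libraries.

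The lead of PAL-A at 13 DPA was not larger than counting error in 1 library. The counts and FPKM correspond to transcript lengths of 2123 bases for PAL-A and 2200 bases for PAL-B, so PAL-B would take 50.9% of the counts of both genes at equal FPKM. In 13 DPA replicate 2 it took 50.4% of 9388 counts, with an exact Clopper-Pearson 95% interval of 49.3% to 51.4%, which includes the share at equal FPKM. In 13 DPA replicates 1 and 3 it took 38.2% and 48.8%, and from 19 DPA on 74.9% to 91.1%. These shares describe the values by which both genes were chosen and are no test of them.

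**Figure D2:**
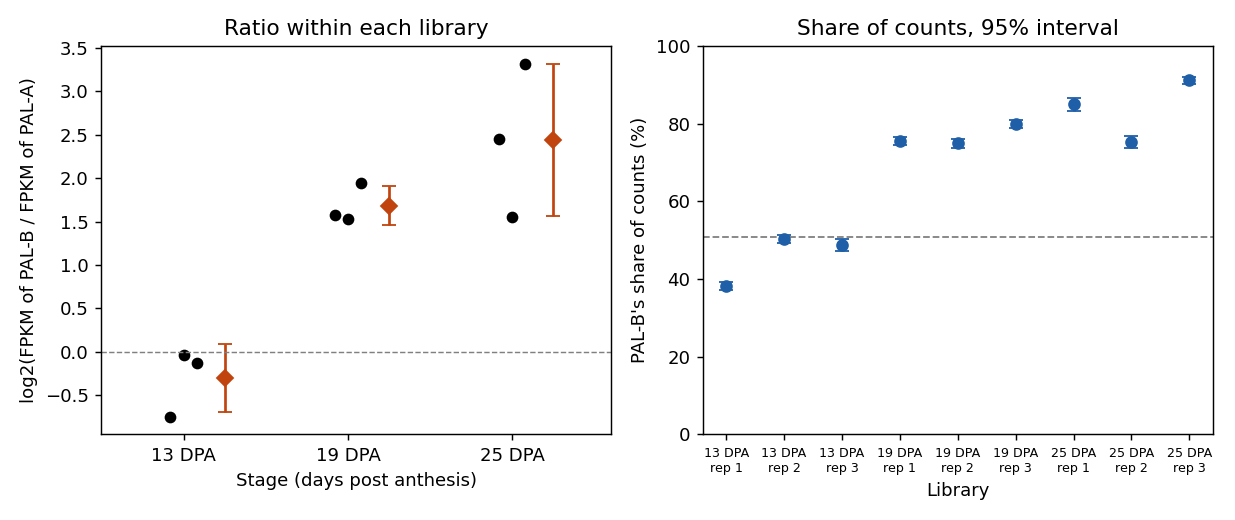
Left, log2 of the FPKM of PAL-B over that of PAL-A (y axis) in each library (black points) by stage (x axis), with the mean and SD of 3 libraries as a diamond and bars, and equal levels as the dashed line. Right, the percent of the counts of both genes that belong to PAL-B in each of the 9 libraries, with the exact 95% interval as bars and the share at equal FPKM, 50.9%, as the dashed line. The 13 DPA libraries lie at or below the line and the other 6 above it.

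PAL-C was measured at much lower levels than either gene. Its deposited FPKM was 8.36, 8.07 and 7.40 at 13 DPA, then 3.03, 3.28 and 2.84 at 19 DPA and lastly 1.31, 1.62 and 1.24 at 25 DPA. Like PAL-A it was highest at 13 DPA and lowest at 25 DPA, with no overlap between stages on this scale. PAL-C led the class at no stage, so its level entered the choice only as the lower one. Its TMM-scaled log2 fold change was -1.43 (SE 0.24, edgeR quasi-likelihood adjusted p 0.00109) from 13 to 25 DPA, lower in all 3 libraries, with adjusted p-values of 1.21e-06 to 0.00607 under the alternatives. From 13 to 19 DPA it was -0.56 (SE 0.23, edgeR adjusted p 0.165), and -1.38 with total counts as the only scaling (edgeR adjusted p 0.00442). From 19 to 25 DPA it was -0.87 (SE 0.24, edgeR adjusted p 0.0189), short of the log2 change of 1 that a call also required here, and -1.03 without 19 DPA replicate 3 (edgeR adjusted p 0.0216), which passed. Without 19 DPA replicate 2, 25 DPA replicate 1 or 25 DPA replicate 3 the edgeR adjusted p was 0.0575, 0.0614 and 0.0518.

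PAL-C stood at 0.0841 to 0.167 of the FPKM of PAL-A at 13 DPA, then 0.0993 to 0.114 at 19 DPA and lastly 0.0921 to 0.219 at 25 DPA. The stages overlapped in this ratio. The FPKM of PAL-B over that of PAL-C was between 5.497 and 10.3 at 13 DPA, between 28.4 and 33.8 at 19 DPA and between 25.1 and 52.1 at 25 DPA, with no overlap between 13 DPA and the later stages. How reads shared between near-identical copies were counted is not given in the sources used here, so the split of reads among the 3 PAL genes is uncertain where their sequences are alike. Whether the counting used strand is not given either.

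Of the summed FPKM of the 3 PAL genes, PAL-A held 59.5%, 48.2% and 48.0% at 13 DPA, then 24.5%, 25.1% and 20.1% at 19 DPA and lastly 14.9%, 24.8% and 8.99% at 25 DPA. PAL-B held 35.5% to 47.2% at 13 DPA, then 72.4% to 77.6% at 19 DPA and lastly 72.9% to 89.3% at 25 DPA. PAL-B thus held most of the class sum in all 6 libraries from 19 DPA on. The summed deposited FPKM was 145 ± 46.0 at 13 DPA, then 126 ± 2.69 at 19 DPA and lastly 61.2 ± 18.1 at 25 DPA (SD, n = 3). On the TMM scale it was 96.6 ± 42.3, 144 ± 27.5 and 85.2 ± 28.6 in the same order, so the stage with the highest sum differed between the scales.

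For the next steps the pathway list held a single C4H gene (FtPinG0001575100.01) and a single 4CL gene (FtPinG0005072700.01), and both fell in the maturing seed. Any other genes for these steps were not examined. From 19 to 25 DPA the log2 fold change was -2.61 for C4H (SE 0.61, edgeR adjusted p 0.00985, 2.69e-05 to 0.0418 under the alternatives). For 4CL it was -2.74 (SE 0.57, edgeR adjusted p 0.00592, 4.96e-06 to 0.0267 under the alternatives). Each was lower in all 3 libraries of 25 DPA than in any of 19 DPA, whereas the fitted changes of PAL-A and PAL-B over this step were -1.32 and -0.61. From 13 to 25 DPA the log2 fold change was -2.03 for C4H (SE 0.59, edgeR adjusted p 0.0173) and -2.76 for 4CL (SE 0.57, edgeR adjusted p 0.00316), and the C4H call was lost without 25 DPA replicate 3 (edgeR adjusted p 0.0636). From 13 to 19 DPA neither passed the test, with edgeR adjusted p-values of 0.577 and 0.987, and C4H had a log2 fold change of 0.57 with TMM and -0.24 with total counts.

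Against C4H in the same library, PAL-A stood at 0.524, 0.455 and 0.460 of its FPKM at 13 DPA. It stood at 0.213, 0.198 and 0.262 at 19 DPA and at 0.795, 0.479 and 0.499 at 25 DPA, so the ratio was lowest at 19 DPA, apart from the other stages. PAL-B stood at 0.312, 0.446 and 0.422 of C4H at 13 DPA, at 0.635, 0.571 and 1.01 at 19 DPA, and at 4.36, 1.41 and 4.96 at 25 DPA. The stages did not overlap in the ratio of PAL-B to C4H, and PAL-B exceeded C4H in all 3 libraries of 25 DPA.

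Against 4CL, the ratio of PAL-B was 1.04, 2.31 and 1.17 at 13 DPA, then 4.51, 2.73 and 7.24 at 19 DPA and lastly 25.4, 10.1 and 25.5 at 25 DPA. It too did not overlap between stages. The ratio of PAL-A to 4CL was 1.27 to 2.36 at 13 DPA, then 0.947 to 1.88 at 19 DPA and lastly 2.57 to 4.64 at 25 DPA, with overlap between the first 2 stages. In deposited FPKM at 25 DPA, PAL-B was at 32.9 to 64.6, PAL-A at 5.997 to 17.6, C4H at 7.55 to 36.7 and 4CL at 1.29 to 5.10, so the ranges of PAL-B and C4H overlapped across libraries.

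Within a stage, PAL-A deviated from the stage mean mostly in the same direction as PAL-C, C4H and 4CL. The deviation of log2 CPM (counts relative to the TMM-scaled library size) had the same sign for PAL-A and PAL-C in 9 of 9 libraries, for PAL-A and C4H in 8 and for PAL-A and 4CL in 8. For PAL-A and PAL-B it had the same sign in 6 of 9. Deviations of 3 libraries add up to 0 within a stage, and all genes of a library share its preparation and scaling, so these counts are a description.

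In 25 DPA replicate 2 the log2 CPM of PAL-A was 0.87 above the stage mean, that of C4H 1.13 and that of 4CL 0.86, while PAL-B was at -0.01. In 25 DPA replicate 1 PAL-A was at -0.58, C4H at -1.05, 4CL at -0.997 and PAL-B at -0.57. In 13 DPA replicate 3 all 4 were low, with PAL-A at -0.91, PAL-B at -0.74, C4H at -0.86 and 4CL at -0.46. That library also had the lowest share of counts in its 10 most abundant genes, 5.82%, and the highest TMM factor, 1.81, whose part in these low values was not tested.

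**Figure D3:**
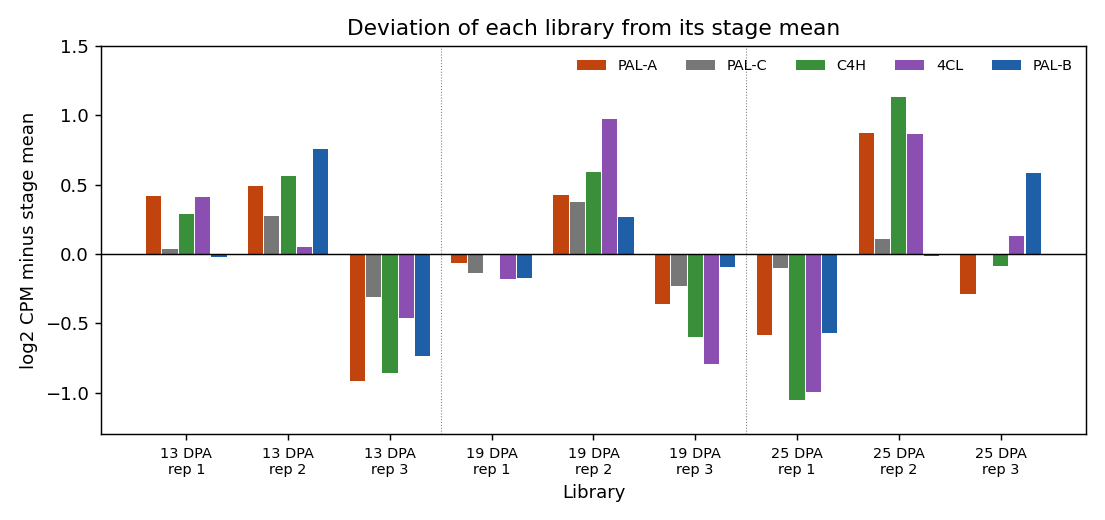
Deviation of log2 CPM from the mean of its stage (y axis) in each of the 9 libraries (x axis) for PAL-A, PAL-C, C4H, 4CL and PAL-B. The PAL-A bar has the sign of the PAL-C bar in 9 libraries and of the PAL-B bar in 6, and 25 DPA replicate 2 shows PAL-A at 0.87 beside PAL-B at -0.01.

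The 5 genes whose centred log2 CPM profile over the 9 libraries lay nearest to that of PAL-A, among 20953 other genes with a mean of at least 1 FPKM, were FtPinG0008464100.01, Novel00207, FtPinG0001480300.01, FtPinG0006450700.01 and FtPinG0002156400.01. Their root mean square differences were 0.236 to 0.290 on the log2 scale. For Novel00207, a locus added by the authors' assembly, the mean deposited FPKM was 73.6, 34.7 and 8.39 at 13, 19 and 25 DPA, close to PAL-A in level as well. For PAL-B the nearest were FtPinG0002660000.01, FtPinG0001744900.01, FtPinG0004797700.01, FtPinG0004426300.01 and FtPinG0009347600.01, at 0.250 to 0.269. FtPinG0001744900.01 had mean deposited FPKM of 90.1, 133 and 81.2 over the stages. None of these 10 genes was in the pathway list.

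Among the pathway genes, PAL-C was nearest to PAL-A, in place 254 of 20953 at a difference of 0.483. CHI FtPinG0002790600.01 came in place 471, C4H in place 1202 and 4CL in place 1563, while PAL-B came in place 13154 at 1.24. Also nearer than C4H and 4CL were UGT genes in places 267 and 1097 and a CHS gene in place 578. So were a flavonoid 3'-hydroxylase gene in place 683 and an FLS gene in place 928. Seen from PAL-B, PAL-C was in place 13228, C4H in place 16608 and 4CL in place 17968. The nearest pathway genes to PAL-B were both UGT, FtPinG0006615400.01 in place 44, named after its values were seen, and FtPinG0006606900.01 in place 176. PAL-A and PAL-B were chosen for leading at different stages, so the distance between them follows in part from that choice.

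The list of pathway genes without PAL-A and PAL-B held 48 genes, of which 32 passed the filter on low counts and were tested. A gene was called at an edgeR adjusted p of at most 0.05 and a log2 fold change of at least 1 in size. From 13 to 19 DPA, 7 of the 32 rose and 1 fell, against 4.11% of all 23609 genes tested that rose and 4.46% that fell, and their median log2 fold change was 0.58 against -0.03 over all genes. This count was 9 without 13 DPA replicate 2, 1 and 2 without 13 DPA replicates 1 and 3, 3, 3 and 4 without 19 DPA replicates 1 to 3, and 5, 5 and 4 without 25 DPA replicates 1 to 3. Calls over all genes moved the same way, from 2024 to 3065 without 13 DPA replicate 2. They were 402 and 724 without 13 DPA replicates 1 and 3, and 1037, 672 and 1178 without 19 DPA replicates 1 to 3. Without 25 DPA replicates 1 to 3 they were 1715, 1709 and 1643. With total counts as the only scaling 3 rose and 4 fell, against 2.52% and 31.2% of all genes. Scaling by total counts moved the median over all genes to -0.85 over this step, to -0.32 from 19 to 25 DPA and to -1.19 from 13 to 25 DPA, and PAL-A at -1.39 and PAL-B at 0.61 lay below and above the first of these medians, as they lay below and above the median with TMM.

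From 19 to 25 DPA, 8 of the 32 rose and 14 fell, against 9.27% of all genes that rose and 19.5% that fell, with a median log2 fold change of -1.10 against -0.02 over all genes. With total counts 5 rose and 18 fell, against 5.16% and 23.4% of all genes. The fitted changes of PAL-A, -1.32, and PAL-B, -0.61, lay on either side of the list's median. By class, 2 of 3 CHS genes, the 1 CHI gene tested and 2 of 2 flavonoid 3',5'-hydroxylase (F3'5'H) genes fell. Of 6 FLS genes 3 fell and 1 rose, and of 4 flavonoid 3'-hydroxylase (F3'H) genes 1 fell and 2 rose. Of 13 UGT genes 5 rose and 3 fell. From 13 to 25 DPA, 10 of the 32 rose and 13 fell, against 16.6% of all genes that rose and 25.6% that fell, with a median of -0.82 against -0.07, and with total counts 8 rose and 18 fell, against 6.22% and 53% of all genes.

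The most abundant CHS, CHI, FLS and F3'5'H genes fell over the last step, with fitted changes larger in size than the -1.32 of PAL-A and the -0.61 of PAL-B. The log2 fold change from 19 to 25 DPA was -3.21 for CHS FtPinG0008131000.01, which makes the chalcone skeleton (SE 0.59, edgeR adjusted p 0.00341). It was -2.48 for CHI FtPinG0002790600.01, which closes the flavanone ring (SE 0.34, edgeR adjusted p 0.00126), and -2.06 for FLS FtPinG0006907100.01, which forms flavonols (SE 0.36, edgeR adjusted p 0.00283). For F3'5'H FtPinG0006940000.01 it was -1.58 (edgeR adjusted p 0.0478). The most abundant F3'H gene, FtPinG0002353900.01, fell by just over the limit of 1 (edgeR adjusted p 0.0308), while 2 other F3'H genes rose. UGT FtPinG0006606900.01 did not pass, at -0.15 (edgeR adjusted p 0.774). The calls of F3'5'H FtPinG0006940000.01 and F3'H FtPinG0002353900.01 lay close to the limits. Without 25 DPA replicate 1, 9 pathway genes were called lower and 7 higher over this step, against 14 and 8 in the main fit. The differences between the changes of these genes and those of the PAL genes were not tested.

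**Figure D4:**
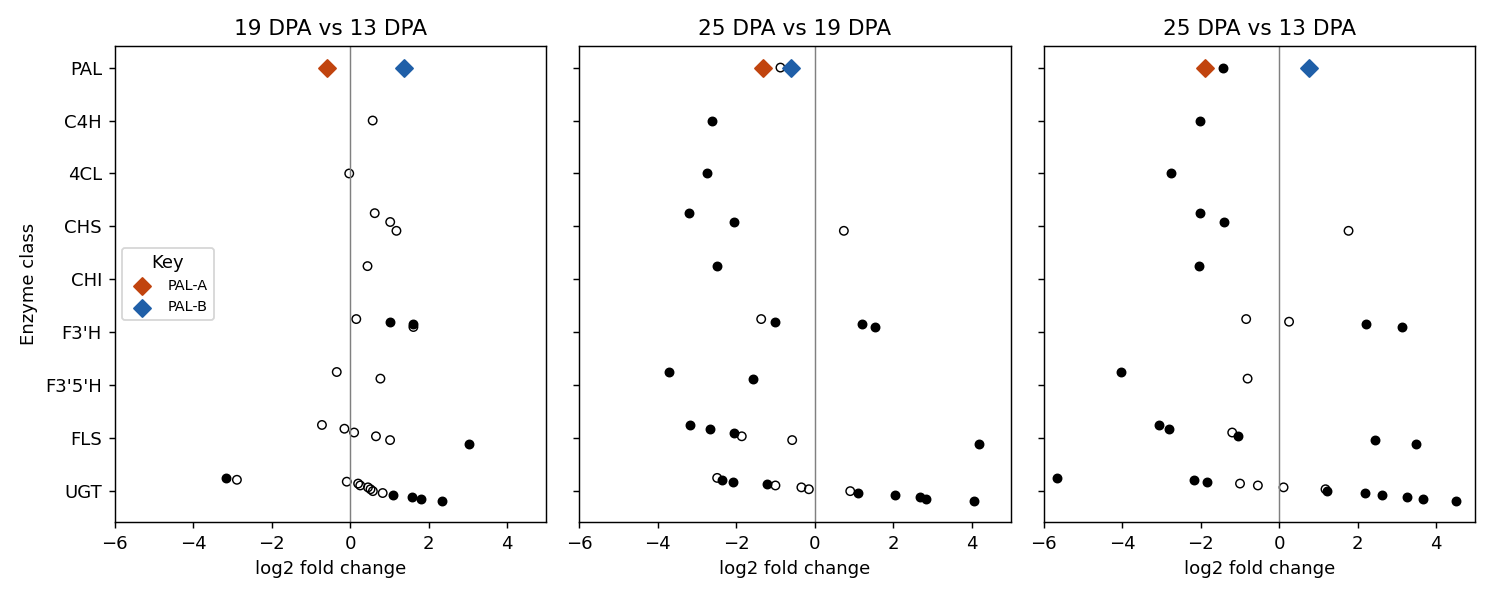
TMM-scaled log2 fold change (x axis) of the tested pathway genes by enzyme class (y axis) for 3 pairs of stages. Circles are the other 32 genes, filled where called, and diamonds are PAL-A and PAL-B, which carry no test. From 19 to 25 DPA 14 circles are called lower and 8 higher, with PAL-A at -1.32 and PAL-B at -0.61.

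**Figure D5:**
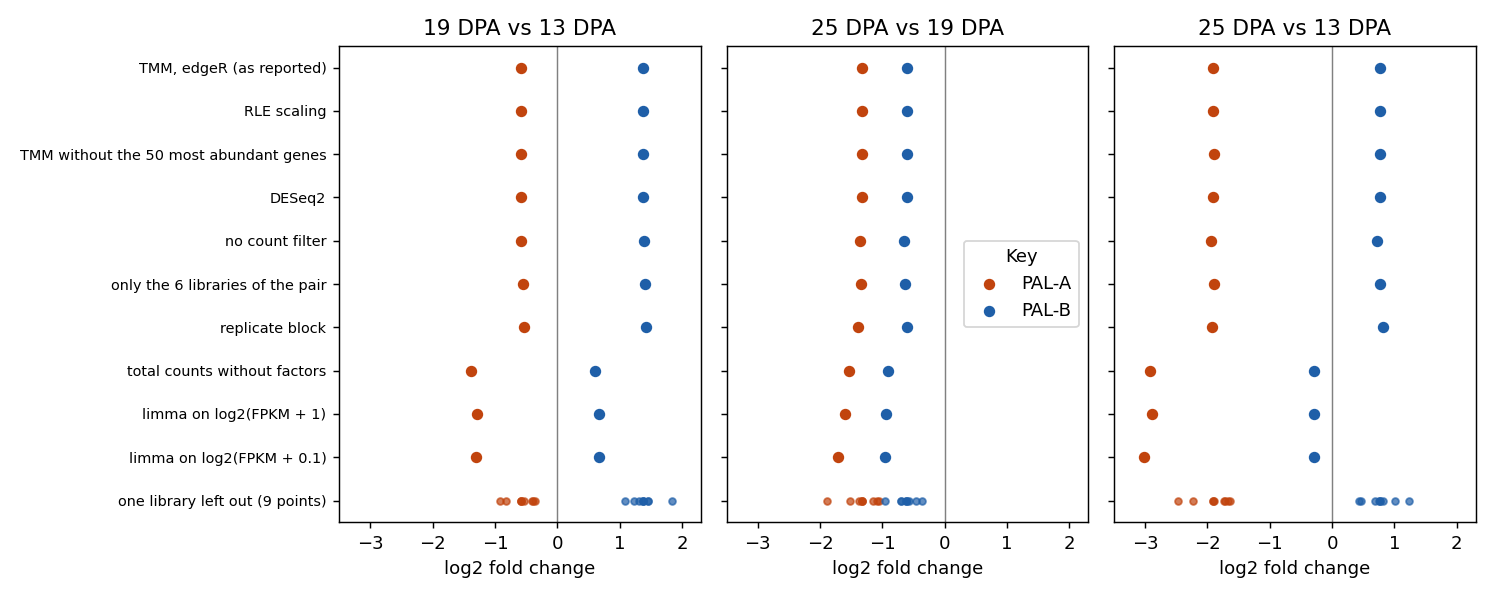
Fitted log2 fold change (x axis) of PAL-A and PAL-B for 3 pairs of stages under each setting (y axis), with the 9 fits that leave out 1 library in the bottom row. PAL-A is below 0 in all of them, and PAL-B from 13 to 25 DPA lies between -0.30 and -0.28 with total counts or deposited FPKM and above 0 in the others.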

How the data were processed

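Read counts for each gene come from the authors and were used as deposited. The FPKM values were computed by the authors from the same reads, relative to transcript length and library total, with no further scaling between libraries. The submitters' processing notes name TopHat2 2.0.12 and Bowtie2 2.0.6 with the Pinku1 genome, and loci outside the annotation came from a Cufflinks assembly. How reads were counted (tool, strand, reads with several hits) is not given in the sources used here.

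Counts were scaled with TMM and tested with edgeR 4.0.16 (quasi-likelihood, robust, filterByExpr, stage as the only term, all 9 libraries, Benjamini-Hochberg over 23609 genes) in R 4.3.3, where the study used DESeq. Its methods do not spell out the fold threshold, taken here as a log2 change of 1. The pair of 13 and 25 DPA was added here. Alternatives used DESeq2 1.42.0, limma 3.58.1 on log2(FPKM + 1) and log2(FPKM + 0.1), other scalings and filters, a replicate block and leaving out each library. TMM-scaled FPKM are counts relative to transcript length and the TMM-scaled library size, on the scale of the deposited FPKM, with the length implied by counts and FPKM. Scripts were tested on simulated data.

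The genes named were the PAL genes, C4H, 4CL, the gene of highest mean FPKM in each other class and the 5 genes nearest in profile to PAL-A and to PAL-B. The list of 50 pathway genes joins the study's flavonoid list with its C4H, 4CL and 1 UGT gene. The members and lists were chosen with earlier results of these data known.

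Deviations from the stage means of libraries with the same replicate number correlated across genes at 0.353, 0.494 and 0.590 between 13 and 19 DPA. Libraries of unlike number gave -0.478 to -0.111 there. Deviations of 3 libraries add up to 0 within a stage, so these values cannot settle whether the same number means the same plant. Between 19 and 25 DPA the same-number values were 0.0258, 0.0329 and 0.197, and between 13 and 25 DPA -0.0279, 0.00757 and 0.133. The main fit leaves pairing by number out, and the replicate block applies it to all 3 stages. From 13 to 19 DPA the edgeR adjusted p of PAL-C was 0.165 in the main fit and 0.0888 with the block.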

Additional observations from a re-analysis of the deposited data

How the results depend on the processing

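PAL-A stayed below 0 in all 3 pairs of stages and the change of the log2 ratio of PAL-B over PAL-A stayed above 0 under all 18 alternatives. Both genes were chosen by these values, and their ratio within a library does not depend on the scaling between libraries. The signs are thus a description and give no support. Total counts, limma on log2(FPKM + 1) and limma on log2(FPKM + 0.1), none of which scales beyond the total, moved the log2 fold change of PAL-A from 13 to 19 DPA to -1.39, -1.28 and -1.31 and from 13 to 25 DPA to -2.93, -2.88 and -3.02. In the same order they moved PAL-B from 13 to 19 DPA to 0.61, 0.66 and 0.67 and reversed it from 13 to 25 DPA, at -0.30, -0.28 and -0.29. They reversed C4H from 13 to 19 DPA, at -0.24, -0.21 and -0.21, and brought PAL-C past the threshold there, at -1.38, -1.15 and -1.35. From 19 to 25 DPA PAL-C passed at -1.13 with total counts and -1.08 with log2(FPKM + 0.1).

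With the replicate number as a block PAL-A changed by -0.53, -1.39 and -1.92 and PAL-B by 1.42, -0.61 and 0.81 from 13 to 19, 19 to 25 and 13 to 25 DPA, and 9, 22 and 23 pathway genes were called. Over all genes the block gave 2743, 7184 and 10311 calls, against 2024, 6793 and 9964 without it. The block changed no call of PAL-C, C4H or 4CL. From 13 to 19 DPA 8 pathway genes were called, but 5 with limma on log2(FPKM + 1), 3 with only the 6 libraries of both stages and 11 with DESeq2. Over all genes 2024 were called at this step, but 6332 with limma on log2(FPKM + 1), 1303 with only the 6 libraries and 3246 with DESeq2. With total counts 7955 were called, and 402 without 13 DPA replicate 1.

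Leaving out 1 library gave 1 to 9 pathway calls from 13 to 19 DPA, 16 to 23 from 19 to 25 DPA and 20 to 24 from 13 to 25 DPA. Over all genes it gave 402 to 3065, 5262 to 7077 and 8870 to 10467 calls in that order. It gave PAL-A -0.91 to -0.36, -1.90 to -1.06 and -2.48 to -1.64, and PAL-B 1.08 to 1.85, -0.95 to -0.37 and 0.43 to 1.24 in that order. The log2 ratio changed by 1.72 to 2.20, 0.19 to 1.33 and 2.15 to 3.29. PAL-C spanned -1.03 to -0.66 from 19 to 25 DPA and C4H -2.79 to -1.65 from 13 to 25 DPA. For 4CL from 13 to 19 DPA, at -0.02, the sign turned among -0.67 to 0.32, and with 6 libraries it was 0.0060. The cause of these shifts was not tested. Depth limits PAL-C most, at 69 to 90 counts at 25 DPA.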
